A study of Mus musculus with 6 samples.

Results

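The 10 genes described here encode transcription factors that bind sequences found at TAF4b promoter peaks: Sp1 and Sp3 (GC box), Nfya, Nfyb and Nfyc (the subunits of NF-Y, CCAAT box), Nrf1 (NRF1 sequence), Gabpa (ETS sequence), Creb1 (cAMP response element, CRE), Yy1 (YY1 sequence) and Zfp143 (GFY sequence). They were listed by name, and they are 10 of 21757 protein-coding genes in the annotation used. A row of a list was taken for a gene when its nearest promoter or its annotation named a transcript of that gene. The genes had 11 of 7861 rows in TAF4b replicate 1, 3 of 848 in TAF4b replicate 2, 20 of 64891 in H3K4me3 replicate 1 and 1 of 1730 in H3K4me3 replicate 2.

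The lists come from CUT&RUN on prospermatogonia, the germ cells of the fetal testis, from male C57BL/6 embryos at E16.5. All embryos were wild type for Taf4b and came from parents homozygous for an Oct4-EGFP transgene (B6;129S4-Pou5f1tm2Jae/J), and dissociated gonad cells were sorted by GFP after dead cells were discarded. The source is labelled prospermatogonia. There were 2 libraries each for an antibody against TAF4b, for an antibody against the promoter mark H3K4me3, and for IgG. No IgG values are used, so the control antibody's background at these genes is not given. The labels do not say whether replicates came from separate litters. Every list holds 1 library, and both replicate 2 lists are far shorter than their replicate 1 lists, so absence from replicate 2 does not show absence of TAF4b. The lowest listed TAF4b scores were 6.45 in replicate 1 and 40.5 in replicate 2, on scales that may differ. Peak scores are the authors' and were compared only within 1 list. Read totals are not in the lists, so depth is unknown. Of 9 male germ cell markers, 5 had a TAF4b and 6 an H3K4me3 promoter row in replicate 1. Among 5 Sertoli cell markers the counts were 0 and 4, among 7 Leydig and interstitial markers 0 and 2, and among 4 blood and endothelial markers 0 and 0. The shares of all protein-coding genes were 22.7% for TAF4b and 44% for H3K4me3, and the interstitial H3K4me3 count lay below its share. H3K4me3 rows at some Sertoli cell and interstitial genes were present in this library, and their part in the results below was not tested.

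TAF4b is a germ cell-enriched subunit of TFIID, the complex that recognises core promoters and helps RNA polymerase II start transcription. SP1 and SP3 are zinc finger proteins that share the GC box, and NF-Y binds its box as a complex of 3 different subunits, of which NFYA makes the sequence-specific contacts. NRF1 and GABPA (the DNA-binding part of GABP) act at many promoters of housekeeping and mitochondrial genes. CREB1 responds to cAMP signalling, YY1 can activate or repress, and ZFP143 is a zinc finger protein of promoters. Such factors are broadly expressed, and their sites are common in CpG-rich promoters.

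Sequence inside the TAF4b peaks is shown first, because the question is which of these factors' sequences lie at their own genes. In all, 7 short cores were searched on both strands. The GC box was searched as GGGCGG, and the CCAAT box by the letters of its name. The NRF1 core was searched as GCGCATGCG, and the ETS core as CCGGAAG. For the cAMP response element the letters were TGACGTCA, for the YY1 core they were AAGATGGCG, and for the GFY core they were ACTACAATT. Cores may overlap each other, and each match is a description, not a proven site. All stretches are GRCm39 genome sequence, written 5′ to 3′ on the strand of the gene, in lower case with every match to one of the cores in capitals. A core on the other strand appears as its reverse complement. Longer stretches are parts of peaks outside annotated untranslated regions, and shorter ones are 30-base sites. The upstream Sp1 peak, its replicate 2 peak, the Yy1 peak and the Zfp143 peak of replicate 2 are shown because each held a CCAAT box. GC boxes also stand in the Sp1 stretch of replicate 2.
Sp1, upstream peak of replicate 1, chr15:102314216-102314358, plus strand: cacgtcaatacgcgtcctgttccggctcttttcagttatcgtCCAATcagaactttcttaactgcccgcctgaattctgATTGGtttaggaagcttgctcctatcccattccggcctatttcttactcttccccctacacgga
Sp1, part of the replicate 2 peak, chr15:102314485-102314577, plus strand: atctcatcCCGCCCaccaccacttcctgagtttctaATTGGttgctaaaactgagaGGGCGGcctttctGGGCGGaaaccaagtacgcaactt
Yy1, part of the replicate 1 peak, chr12:108758715-108758841, plus strand: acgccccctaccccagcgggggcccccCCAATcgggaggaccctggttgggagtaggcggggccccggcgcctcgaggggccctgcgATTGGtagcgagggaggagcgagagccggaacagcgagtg
Zfp143, part of the replicate 2 peak, chr7:109660762-109660830, plus strand: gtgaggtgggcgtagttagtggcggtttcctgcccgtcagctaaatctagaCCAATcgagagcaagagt

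The next sites show genes whose TAF4b peak held the core that the gene's own product binds. Nfyb and Nfyc peaks held the CCAAT box, and the Sp3 peak held a GC box with an ETS core beside it. Such cores are common: of all TAF4b replicate 1 promoter peaks, 37.9% held a CCAAT box, 56.9% a GC box and 13.6% an ETS core. The Nfyb box lay downstream of its RefSeq start, and the Nfyb promoter window described below held none. The downstream Sp1 peak of replicate 1 also held GC boxes and is not shown. The Gabpa site lies in a peak that is listed under the neighbouring gene Atp5pf.
Nfyb, chr10:82599855-82599884, minus strand: accaaacagccgATTGGagacgggagccaa
Nfyc, first of 3 in its intron-class peak, chr4:120682488-120682517, minus strand: gggctttctcccATTGGcggaaggcgacgg
Nfyc, second of 3, chr4:120682452-120682481, minus strand: ggctcgctcgtgATTGGtcggcggcgggga
Nfyc, last of 3, chr4:120682414-120682443, minus strand: acctggcaccttATTGGtcacgccggctcc
Sp3, chr2:72810812-72810841, minus strand: gagagccgggaagagGGGCGGaaCTTCCGG
Gabpa, chr16:84631736-84631765, plus strand: ccaccgttctaCTTCCGGccctggctccgc

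The final pair shows a peak with a core, but not that of the gene's own product. Both are GC boxes.
Nfya, chr17:48716852-48716881, minus strand: gctcttcctaggGGGCGGggccaggctggc
Creb1, chr1:64571959-64571988, plus strand: gcactcggcactGGGCGGcgctggctggct

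TAF4b peaks were listed at the promoters of nearly all of these genes in replicate 1. A promoter row is one of the deposited class promoter-TSS that names a transcript of the gene. Such a row was present for 9 of the 10 genes in TAF4b replicate 1, against 22.7% of protein-coding genes, and Gabpa was the exception. In replicate 2 it was present for 3 of the 10 (Sp1, Nfya and Zfp143), against 3.12%. The same 3 genes were therefore in both replicates, against 2.7%. H3K4me3 promoter rows named 9 of the 10 genes in replicate 1, against 44%, and 1 (Sp3) in replicate 2, against 4.14%. Both marks of replicate 1 were present at the same 9 genes, against 16.7% of protein-coding genes with both. Among the 9569 genes with an H3K4me3 promoter row in replicate 1, 37.9% also had a TAF4b promoter row. No test was made on these counts, because they describe 10 named genes in 2 libraries per antibody.

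**Figure D1:**
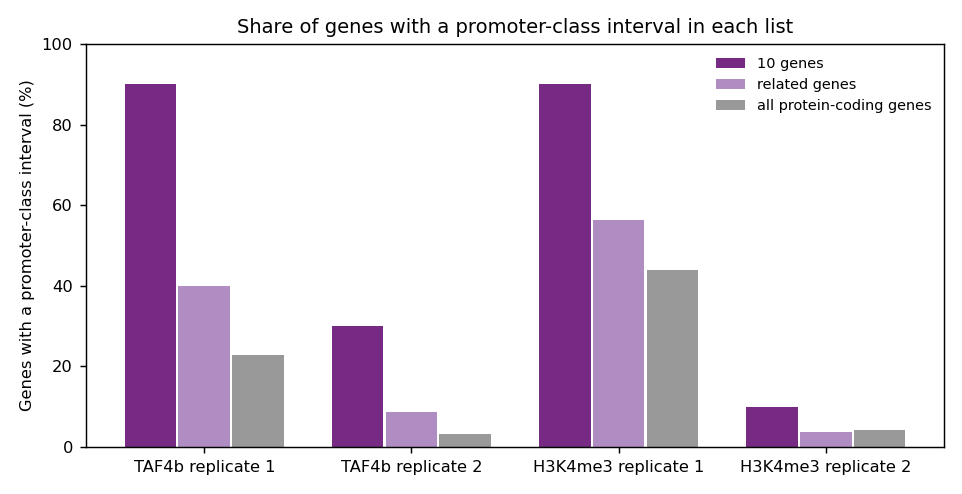
Bars give the percentage of genes with a promoter-class row (vertical axis) in each of the 4 lists, for the 10 genes, for 80 related genes and for 21757 protein-coding genes. In TAF4b replicate 1 the counts are 9 of 10 and 32 of 80, set beside 22.7% of all protein-coding genes, and each list is 1 library with no error bar.

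These promoters were all rich in CpG. Promoter windows of 300 bases (250 before and 50 after a start) were taken from RefSeq (GRCm38.p6), and all 17 windows of the 10 genes were placed on GRCm39 by exact match. In the window used for each gene, GC content ran from 58.7% (Zfp143) to 81% (Yy1), with a median of 67.8%, against a median of 56.3% over all windows. CpG dinucleotides numbered 18 (Zfp143) to 43 (Nrf1), against a median of 13, and all 10 genes lay above both medians. Of 7374 protein-coding genes with at least 18 CpG in a window, 40.2% had a TAF4b promoter row in replicate 1. With an H3K4me3 promoter row as well, it was 46.3% of 4765 genes. The matching counts of the genes described here were 9 of 10 and, with an H3K4me3 promoter row, 9 of 9. The limit of 18 CpG is the lowest value of these genes, whose median was 30. Genes in the comparison were therefore not matched to them in CpG, and how far base composition contributes to the counts was not tested.

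Gabpa had no row under its own name, although intervals of both antibodies lay at its start. That region is shared with Atp5pf, a gene for a subunit of ATP synthase on the opposite strand. A TAF4b peak of replicate 1 lay at chr16:84631669-84631811 with a score of 15.4 (rank 3243 of 5756 promoter peaks), and both its class and its nearest promoter named Atp5pf. An H3K4me3 region at chr16:84630914-84633431 covered it, also under Atp5pf, with a score of 180.4 (rank 650 of 13454 promoter regions). With annotated starts in place of the deposited names, chosen after this was seen, a start within 100 bp of a TAF4b peak was found for 10 of 10 genes, against 25.7% of protein-coding genes. For H3K4me3 the same rule gave 8 of 10, against 66.6%, and the genes it left out were Sp1 and Yy1. An H3K4me3 share of 8 in 10 is not far from that of all genes. Nfya shares its start region in the same way with Oard1, an ADP-ribose hydrolase gene, and its replicate 2 TAF4b peak had Oard1 as its nearest promoter. A coding gene on the opposite strand started within 1000 bp of 2 of the 10 genes, and of 13.3% of protein-coding genes.

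**Figure D2:**
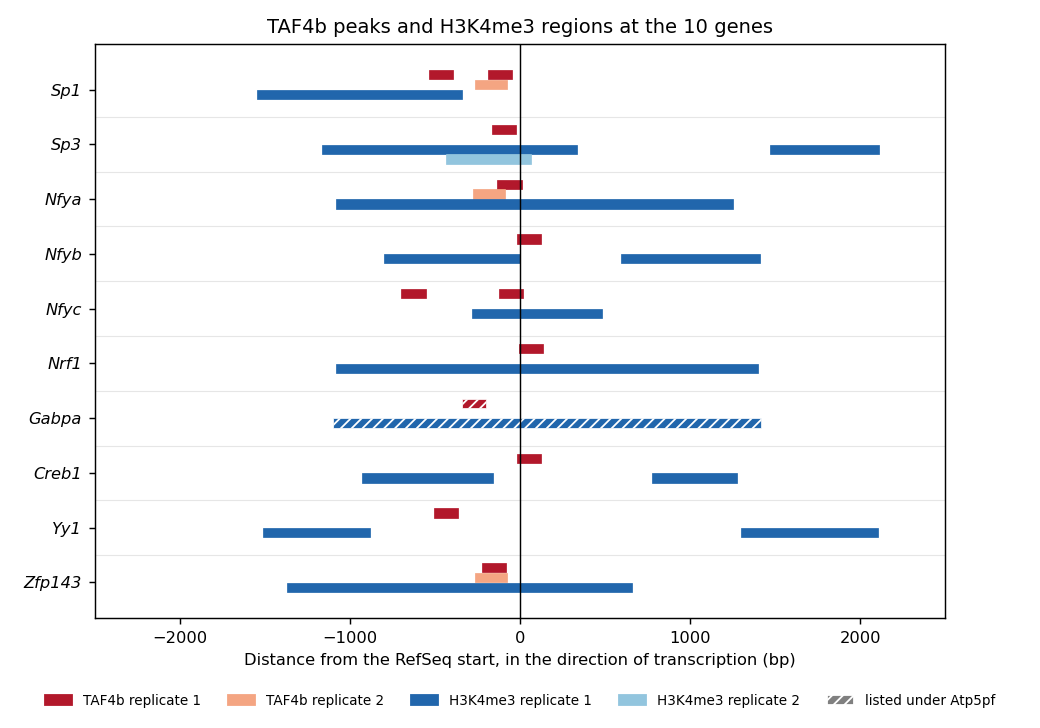
Intervals of the 4 lists are drawn by distance from the RefSeq start (horizontal axis, bp, transcription to the right), 1 gene per band, with hatched bars for rows listed under Atp5pf. TAF4b peaks lie within 697 bp of the start drawn at every gene, and at Creb1 and Yy1 they fall between H3K4me3 regions.

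The GC box factors had strong peaks. Sp1 (chr15) carried 2 TAF4b promoter peaks in replicate 1, with scores of 37.2 at 102314216 to 102314358 and 39.7 at 102314561 to 102314703. Their centres lay 464 and 119 bp upstream of the RefSeq start. In replicate 2 a single peak at 102314485 to 102314673 had a score of 109.3, rank 39 of 748 promoter peaks, and it shared 112 bp with the downstream peak of replicate 1. Several promoter peaks in 1 gene were uncommon: 5.89% of the 4943 protein-coding genes with a TAF4b promoter row in replicate 1 had 2 or more. At Sp3 (chr2) 1 peak at 72810812 to 72810954 had a score of 30.8, centred 93 bp upstream of its start. Sp3 was not in TAF4b replicate 2, but it was the only one of the 10 with an H3K4me3 row in replicate 2, at 72810723 to 72811223 with a score of 111.2, equal to the median of that list's promoter rows. Sp1 and Sp3 thus appeared in opposite replicate 2 lists.

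The NF-Y genes differed widely in score, from 10.9 to 35.7 in replicate 1. Nfya (chr17), the subunit that reads the CCAAT box, had a score of 35.7 in replicate 1 at 48716839 to 48716981 and 97.2 in replicate 2 at 48716936 to 48717124. These intervals shared 45 bp and their centres were 120 bp apart. Nfyb (chr10), one of the 2 histone-fold partners, had a score of 10.9 at 82599851 to 82599993 and no replicate 2 row. Nfyc (chr4), the other partner, had 2 rows in replicate 1. One was of promoter class, with a score of 22.8 at 120682961 to 120683103, and the other of intron class, with a score of 15.4 at 120682390 to 120682532. RefSeq places a start of Nfyc close to each, at 120682938 and 120682406, so that the centres lay 94 and 55 bp upstream of a start. The gene itself is annotated further upstream, to 120688769.

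Of the remaining factors, Zfp143 stood highest and Nrf1 lowest. Zfp143 (chr7) had the best score of the 10 genes in replicate 1, 40.7 at 109660684 to 109660826, rank 161 of 5756. Its replicate 2 peak at 109660642 to 109660830 scored 93.1 and contained the whole replicate 1 peak, with centres 19 bp apart. Yy1 (chr12) had a score of 19.4 at 108758715 to 108758857, centred 437 bp upstream of the RefSeq start and 113 bp upstream of the nearest promoter by the deposited distance. Creb1 (chr1) had a score of 10.4 at 64571947 to 64572089, and Nrf1 (chr6) a score of 7.94 at 30047980 to 30048122, rank 5530 and near the lowest listed score of 6.45. Neither was in replicate 2.

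Over the 10 promoter peaks of these genes in replicate 1, scores ran from 7.94 to 40.7 with a median of 26.8, against 16.9 over all promoter peaks, and 7 of 10 lay above that list median. Their focus ratios, a deposited fraction that describes how the reads of a peak are placed around its centre, ran from 0.555 to 0.7, against a median of 0.644 over all rows of the list. The 3 genes found in replicate 2 were those with the 3 highest replicate 1 scores (40.7, 39.7 and 35.7), and Sp3 at 30.8 came just below them. The same order held in the whole list: of 315 protein-coding genes with a best replicate 1 score of 35.7 or more, 58.7% had a promoter row in replicate 2. Of the 4320 genes from 7.94 to 30.8, the range of the 6 genes not found again, 7.13% did. In replicate 2 the 3 scores (93.1, 97.2 and 109.3) all lay above that list's median of 60.7.

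**Figure D3:**
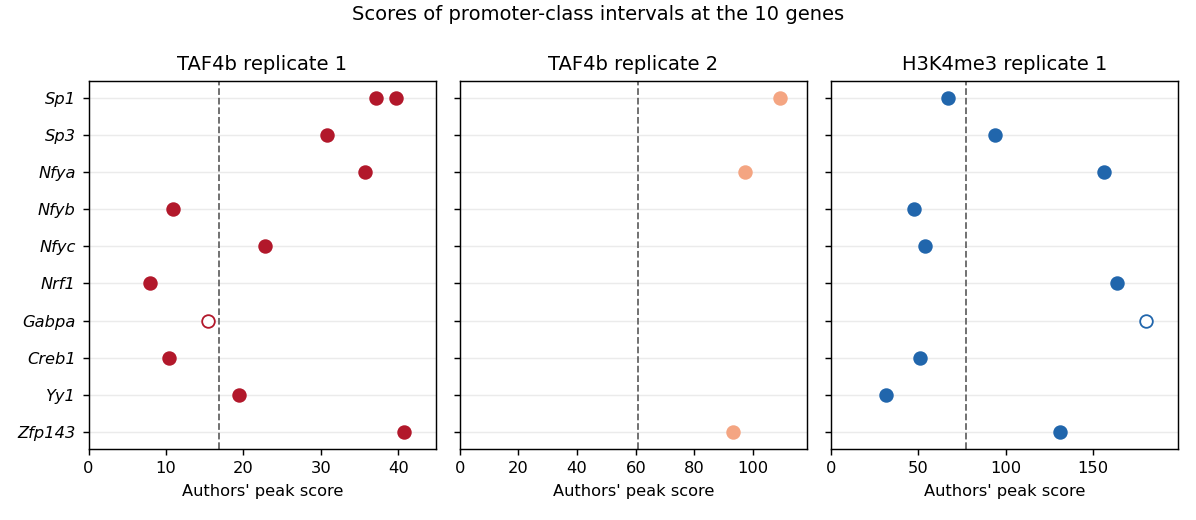
Each point is 1 promoter-class interval, with the authors' peak score on the horizontal axis of each panel, the gene on the vertical axis, and a dashed line at the median of all promoter rows of that list (16.9, 60.7 and 77.5). Open points at Gabpa are listed under Atp5pf, and the genes with points in TAF4b replicate 2 are those with the highest TAF4b replicate 1 scores.

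Peaks of these genes lay close to a start on either side of it. Measured to the nearest RefSeq start of the gene, 8 of the 11 replicate 1 rows were centred upstream, between 55 bp (Nfyc) and 464 bp (Sp1). The other 3 were centred downstream, 53 bp at Nfyb, 55 bp at Creb1 and 64 bp at Nrf1, and these were the 3 rows with the lowest scores. This contrast was noticed after the values were seen and depends on the start used: by the deposited distance, which goes to the nearest Ensembl start, the Nfya peak (24 bp), the downstream Sp1 peak (54 bp) and the Nfyc intron-class peak (420 bp) also lay downstream, and the Creb1 peak lay at 0 bp.

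H3K4me3 regions differed in width and in their place relative to the start. In replicate 1 the Nrf1 region (30046908 to 30049388, score 164) was 2480 bp wide, and those of Nfya (48715595 to 48717932, score 156.5) and Zfp143 (109659540 to 109661565, score 131.2) were 2337 and 2025 bp wide. The Sp3 region (72810456 to 72811955, score 93.9) was 1499 bp wide. All 4 spanned the start, and their scores exceeded the median of 77.5 over all promoter regions. Sp1 had a region of 1208 bp that ended 339 bp before its start, with a score of 67.1. Nfyb, Creb1 and Yy1 had promoter regions of 803, 769 and 633 bp, with scores of 47.7, 50.7 and 31.3. Those of Creb1 and Yy1 ended before the start, and that of Nfyb reached 2 bp past it. Each of these 3 genes had a further region downstream of the start, with scores of 49.2 (Nfyb), 26.8 (Creb1) and 37.3 (Yy1). The only promoter-class region of Nfyc, with a score of 53.7, lay at an internal start 9328 bp downstream, while the region at its TAF4b peaks was 761 bp wide, lay across the start at 120682406 and had a score of 71.5 and the class intron. Over these 9 promoter regions 4 scored above the list median, and the median percentile was 42, whereas it was 80 for the 10 TAF4b promoter peaks. Nfya, Zfp143 and Sp3 scored above the list median for both marks, and Nfyb and Creb1 below it for both. Nrf1 differed, with the best H3K4me3 score of the 9 genes and the lowest TAF4b score. Sp1, Nfyc and Yy1 had TAF4b scores above the median and H3K4me3 scores below it.

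Of the 10 TAF4b promoter peaks of these genes in replicate 1, 6 overlapped an H3K4me3 region of replicate 1 by at least 1 bp, against 86.3% of all 5756 TAF4b promoter peaks. The 6 belonged to 6 of the 9 genes. The shared Gabpa and Atp5pf peak and the Nfyc intron-class peak are not among the 10 because of their deposited labels, and both lay wholly inside a region. At Sp3, Nfya, Nrf1 and Zfp143 the whole peak lay inside the region. At Sp1 the upstream peak lay inside and the downstream peak 149 bp outside, and at Nfyb the overlap was 20 bp. The promoter peaks of Nfyc, Creb1 and Yy1 had no overlap. The Nfyc promoter peak was 274 bp from the region downstream of it, which held the intron-class peak whole. Creb1 and Yy1 peaks fell in a gap between regions, with 142 and 652 bp to the flanking regions at Creb1 and 372 and 1668 bp at Yy1. Among all TAF4b promoter peaks 4.41% lay between H3K4me3 regions in this way (no overlap and a region within 2000 bp on both sides), a definition chosen after these gaps were seen. Both replicate 2 peaks at Nfya and Zfp143 lay inside H3K4me3 regions of replicate 1, and that of Sp1 lay 73 bp outside. Of all TAF4b replicate 2 promoter peaks, 90.8% overlapped such a region and 84.4% lay wholly inside one. With H3K4me3 replicate 2, 1 of the 10 replicate 1 promoter peaks overlapped a region, that of Sp3, which lay wholly inside. This is near the share of all TAF4b replicate 1 promoter peaks, 8.36%.

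Further rows of these genes were H3K4me3 regions. Sp1 had intergenic regions 6306 and 19274 bp upstream with scores of 104.3 and 68.6, the first of them above its promoter region's 67.1. Nrf1 had an intergenic region 20998 bp upstream with a score of 29.8 and one beyond its last exon with a score of 35.8. Sp3 had a region of class promoter-TSS for its antisense gene Sp3os (score 37.3), 1790 bp downstream of the start used and 626 bp from a second RefSeq start at 72809625, and an intergenic one with a score of 26.8. A region with a score of 62.6, for which Zfp143 was the nearest promoter, lay 39376 bp downstream of its start in an intron of another gene.

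Promoters holding the core of their own product in any RefSeq window were found for 5 of the 10 genes: Sp1 and Sp3 (GC box), Nfya and Nfyc (CCAAT box) and Gabpa (ETS). In the 1 window used for each gene they were found for 4, without Nfya. The count and the genes changed with the window: in 200 bp around TAF4b replicate 1 promoter peak centres it was 3 of 9 (Sp1, Sp3 and Nfyb), and at the start of the transcript named in the deposited annotation 2 of 9 (Sp1 and Sp3). In 200 bp around the centres of all 5754 promoter peaks, 65.9% held a GC box and 42.1% a CCAAT box. The NRF1, CRE, YY1 and GFY cores were each in 5.23% or fewer. Cores differ widely in how often they occur in any promoter. GC boxes were in windows of 9 of the 10 genes (all but Gabpa), against 49.2% of 17491 protein-coding genes with RefSeq windows. CCAAT boxes were in windows of 6 (Sp1, Sp3, Nfya, Nfyc, Nrf1 and Zfp143), against 42.3%. These counts take any of a gene's windows, and the boxes of Nfya and Nrf1 were only at internal starts. In the window used for each gene, a CCAAT box was found for 4 of the 10 and a GC box for 8. Over single windows, 8 of 17 held a CCAAT box, against 38.2% of all windows, and 12 of 17 a GC box, against 46.2%, so that the CCAAT counts were near those of all promoters. Some windows of the same gene overlapped, at Zfp143 and Nfya, so the same box could be counted more than once. The ETS core was in those of 2 (Sp3 and Gabpa), against 12.9%, and the YY1 core in that of 1 (Gabpa, but not Yy1), against 2.14%. The NRF1, CRE and GFY cores were in none, with background shares of 2.61%, 2.54% and 0.577%. These letters were thus not found in the windows of Nrf1, Creb1, Yy1 or Zfp143, which says nothing about binding of the factors there. Shorter forms of the other cores gave the same 5 genes, and a longer CCAAT core left 4, without Nfya.

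Copies of a core accumulated in a few windows, which were picked out after their values were seen. The Nfyc window at the start at 120682406 held 5 CCAAT boxes, first bases 247, 99, 63 and 25 bases before the start and 14 after it, and 0.325% of 21262 windows held as many. The Sp1 window held 3 CCAAT boxes (3.92% of windows held at least 3) and 4 GC boxes (7.53% held at least 4). Of the 17 windows of these genes, 3 held at least 3 CCAAT boxes and 3 held at least 4 GC boxes. They included the Nfyc window at 120672910, with 3 CCAAT boxes, and the Sp3 window at 72809625, with 5 GC boxes. In the Yy1 window 7 GC boxes were found (0.889% of windows), while its TAF4b peak lay further upstream and held none. Nfya had its single CCAAT box in the window of an internal start, at 48707608, far from the TAF4b peaks.

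The cores were also counted inside the 10 TAF4b promoter peaks of replicate 1. A GC box was in 5 of them (Sp1, Sp3, Nfya, Nfyc and Creb1), and 56.9% of 5754 promoter peaks on the assembled chromosomes held one. A CCAAT box was in 6 (both peaks of Sp1, and those of Sp3, Nfyb, Yy1 and Zfp143), against 37.9% of peaks. An ETS core was in that of Sp3 and in the shared Gabpa and Atp5pf peak, against 13.6%. The other 4 cores were in none of these peaks (background 2.85%, 4.45%, 1.37% and 0.904% for NRF1, CRE, YY1 and GFY), and the Nrf1 peak held no core at all. The intron-class peak of Nfyc held 3 CCAAT boxes, and 3.61% of promoter peaks held at least 3. The upstream and downstream peaks of Sp1 each held 2, and only the downstream one held GC boxes.

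**Figure D4:**
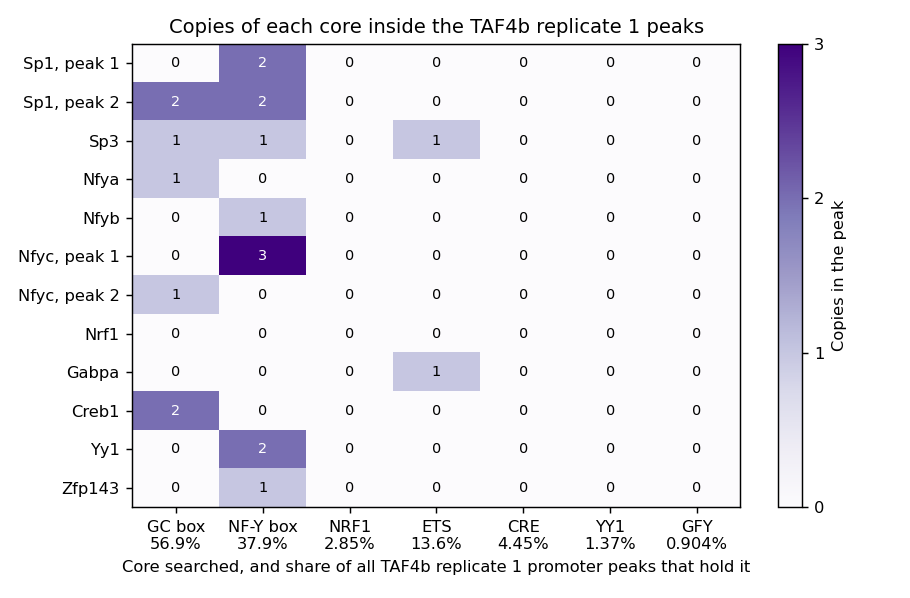
Numbers and shading give the copies of each core (columns) inside each TAF4b replicate 1 peak (rows), and the percentage under a column is the share of all promoter peaks of that list with at least 1 copy. Copies appear in the GC box, NF-Y box and ETS columns, and the Nfyc peak 1 (intron class) has 3 NF-Y boxes.

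A list of relatives, partners and coactivators of these factors was read in the same way. Of 80 such genes found in the annotation, 32 had a TAF4b promoter row in replicate 1 and 7 in both replicates, and 45 had an H3K4me3 promoter row in replicate 1. The shares of all protein-coding genes for these 3 counts were 22.7%, 2.7% and 44%. By class the TAF4b replicate 1 counts were 9 of 24 SP and KLF genes, 7 of 25 ETS genes, 9 of 16 CREB and ATF genes, 0 of 2 YY1 and ZFP143 relatives and 7 of 13 partners and coactivators, of which the ETS count was near the share of all genes. Both partner genes of GABPA, Gabpb1 (score 7.44) and Gabpb2 (25.8), were among them. So were Crtc1 and Crtc2 (16.4 each) and Ep300 (12.9), coactivators of CREB1, whereas Crtc3 and Crebbp had no row. The others with a row were Pprc1 (19.4) and Hcfc1 (8.93), a partner of ZFP143, and Thap11, Hcfc2, Ppargc1a and Ppargc1b had none. These 13 are named after their values were seen. The genes in both replicates were Klf5, Klf6, Klf7, Klf10 and Sp4 of the SP and KLF class, and Atf4 and Atf6b, which act in stress responses. No ETS gene was in both.

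Klf6 had the best TAF4b replicate 1 score of the related genes, 41.2 at chr13:5911256-5911398, with 81 in replicate 2. Etv5, an ETS factor of spermatogonial stem cells, followed with 39.7 at chr16:22258451-22258593, and it was not in TAF4b replicate 2. Sp4 had promoter peaks of 37.2 and 11.9 in replicate 1 and 60.7 in replicate 2. Creb3l2 (34.7) and Klf5 (34.2) completed the best 5. The best scores of Zfp143, Sp1 and Nfya lay within the range of these 5 genes.

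By presence in the 4 promoter lists, Sp1, Nfya and Zfp143 had the same pattern (both TAF4b lists and H3K4me3 replicate 1) as 397 protein-coding genes in all, 1.82% of them. Related genes with that pattern were Atf4, Atf6b, Klf10 and Klf5. The pattern of Sp3 (TAF4b replicate 1 and both H3K4me3 lists) occurred in 289 genes, Ets1 and Etv5 among them. Nfyb, Nfyc, Nrf1, Creb1 and Yy1 shared the pattern of 2872 genes that were in both replicate 1 lists only. The likeness is over 4 yes or no values per gene and is a description.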

How the data were processed

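The tools named are Trim Galore 0.5.0, Bowtie2 2.3.0, SAMtools 1.9 and HOMER 4.10, with the build GRCm39, per the submitters' processing notes, which are used here without their order or settings. The H3K4me3 regions were annotated with annotatePeaks.pl against GRCm39 and Ensembl 103, per the file headers, and the TAF4b headers name no command. The thresholds for listing a peak are not given in the sources used here. Scores are the authors' own score for an interval, on a scale whose normalization is not stated, and the focus ratio of TAF4b peaks is a deposited fraction. Coordinates and annotation classes are used as deposited. Distances are measured here to RefSeq starts placed on GRCm39, except where the deposited distance is named.

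Transcripts named in the lists were turned into genes through GENCODE M39 (GRCm39), which held 98.6% to 99.1% of the nearest-promoter transcripts. A promoter row was of class promoter-TSS and was counted for the gene of the transcript it named. Percentages over all genes used protein-coding genes on the autosomes, X and Y. Overlap meant at least 1 bp. Cores were searched in RefSeq windows and in GRCm39 sequence with pysam 0.24.0 and Python 3.11.15, and the search was tested on simulated data. The 10 genes, the gene lists and the cores were chosen with earlier results of these data known. Named were all 10 genes and, of the related genes, those with TAF4b promoter peaks in both replicates and the 5 with the best replicate 1 scores. Other related genes, the Gabpa locus, core copies and gaps were picked after their values were seen. Results are counts and values with no test. One listed relative, of the YY1 and ZFP143 class, was not matched in the annotation.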

Additional observations from a re-analysis of the deposited data

How the results depend on the processing

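Of 44 alternative values for the main counts, 37 stayed within 1.5 times the reported count and 7 did not. Some of the 37 lay exactly at that limit. In the higher-scoring 50% of each list, TAF4b promoter rows of replicate 1 named 6 of the 10 genes, not 9. Genes whose TAF4b peak overlapped an H3K4me3 region fell from 6 to 4 in that setting. Within 1000 bp of the nearest promoter, the TAF4b replicate 2 count fell from 3 to 2. Leaving out 1 replicate gave 3 to 9 genes with a TAF4b promoter row in either replicate and 1 to 9 for H3K4me3, so both counts rest on replicate 1. With H3K4me3 replicate 2, 1 gene had a TAF4b peak in a region, not 6, and the share of all promoter peaks fell from 86.3% to 8.36%. The count of genes with their own core fell from 5 to 3 in 200 bp around TAF4b peak centres and to 2 at the start of the transcript named in the deposited annotation. In these settings 9 genes were considered. In the higher-scoring 50% of each list, related genes with a TAF4b promoter row fell from 32 to 20 in replicate 1 and from 7 to 4 in replicate 2, while the share of all protein-coding genes fell from 22.7% to 14.6% and from 3.12% to 1.69%. The cause was not tested, other than that fewer rows, genes or regions enter these settings. No paired analysis was possible because each antibody had 1 condition, so there was no contrast between conditions for the replicate numbers to block. Unknown depth limits every statement about genes missing from replicate 2.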
